A study of Homo sapiens with 6 samples.

Results

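The GATA transcription factors are a family of 6 human genes, GATA1 to GATA6, and all 6 were found by Ensembl identifier among the 57820 human genes of the expression table. RNA was measured in 3 samples of DKO1 and 3 samples of its parent (WT), the human colorectal cancer cell line HCT116. DKO1 is a double knockout of DNMT1 and DNMT3B, which encode DNA methyltransferases, made in HCT116. Both lines grew in the same medium, McCoy's 5A. Every DKO1 sample is of 1 derived line, so the knockout and any other change that line has gained cannot be told apart. Nothing in the labels ties replicates to separate cultures, and the p-values below cover only the spread among these 6 samples, which may be technical.

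GATA factors bind DNA at sites built around the letters GATA through paired zinc fingers and act with partner proteins of the FOG, LMO and TAL families. GATA1, GATA2 and GATA3 are best known from blood: GATA1 drives red cell and platelet precursors, GATA2 maintains blood stem and progenitor cells, and GATA3 directs T helper cells and also luminal breast and urothelial cells. GATA4, GATA5 and GATA6 act in heart and in the lining of the gut, where GATA6 is the member of proliferating colonic crypts, and the promoters of GATA4 and GATA5 have been described as methylated in colorectal cancer. DNMT1 copies methylation of CpG sites to the new DNA strand at replication and DNMT3B adds it to unmethylated sites. DNA methylation was not measured in the data used here.

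Values are in TPM, a transcript abundance scaled to gene length and library total, so that levels can be compared between genes. The test was limma on log2(TPM + 1) over the 13604 genes that reached 1 TPM in 3 or more samples, and a gene was called at a Benjamini-Hochberg adjusted p below 0.05. Differences are DKO1 minus WT on that log2 scale with the standard error (SE) from limma, and they understate the change of low genes. Depth is unknown from TPM. The targeted DNMT1 was at 31.07, 30.81 and 46.82 TPM in DKO1, against 244.87, 249.97 and 231.01 TPM in WT. DNMT3B was at 4.86, 4.85 and 3.56 TPM in DKO1, against 8.22, 7.09 and 6.77 TPM in WT, so RNA of both genes was lower in every DKO1 sample and still detected. Mitochondrial transcripts took 21.2% to 27.7% of the TPM in DKO1 samples and 19.7% to 20.1% in WT samples.

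GATA2, the progenitor factor, was the GATA gene that rose in DKO1 among those that passed the filter. It was at 3.61, 3.43 and 4.11 TPM in DKO1 replicates 1, 2 and 3, against 1.01, 1.02 and 0.62 TPM in WT replicates 1, 2 and 3. Its WT values alone would not have met the filter, since WT replicate 3 was below 1 TPM. Every DKO1 sample lay above every WT sample, and the groups were separated by more than the spread within either. The mean was 3.72 ± 0.352 TPM in DKO1 and 0.883 ± 0.228 TPM in WT (SD, n = 3 each), 4.21-fold higher in DKO1. The log2 difference was 1.33 (SE 0.16, 95% confidence interval 0.96 to 1.7, limma adjusted p = 0.000675). Of all tested genes, 18.8% were called higher and 9.6% lower, and 6.88% had a larger log2 difference than GATA2. With the replicate number as a block, GATA2 stayed called and GATA6 not, among 22.4% of genes called higher and 13.4% lower. All DKO1 values lay above all WT values in 27.5% of tested genes. GATA2 stayed a gene of low level, since 25.5% of tested genes had a lower mean in DKO1 and 9.11% had a lower mean in WT.

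GATA2 has a pair of annotated starts in RefSeq, 4671 bases apart, and gene-level TPM does not say which start the reads came from. The 250 bases before each start are shown because CpG sites are what the targeted enzymes methylate, with the GATA6 promoter, whose gene did not pass the test, beside them. CpG sites are in capitals. The sequences are from RefSeq on GRCh38.p14, on the minus strand of chromosome 3 for GATA2 (chr3:128493202-128493451 upstream start, chr3:128488531-128488780 downstream start) and the plus strand of chromosome 18 for GATA6 (chr18:22169339-22169588).
GATA2 upstream start: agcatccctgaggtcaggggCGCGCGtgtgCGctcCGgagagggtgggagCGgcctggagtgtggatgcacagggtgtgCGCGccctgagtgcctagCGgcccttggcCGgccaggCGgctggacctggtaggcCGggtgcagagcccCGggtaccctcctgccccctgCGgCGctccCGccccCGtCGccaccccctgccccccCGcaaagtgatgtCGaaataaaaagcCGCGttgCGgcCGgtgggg
GATA2 downstream start: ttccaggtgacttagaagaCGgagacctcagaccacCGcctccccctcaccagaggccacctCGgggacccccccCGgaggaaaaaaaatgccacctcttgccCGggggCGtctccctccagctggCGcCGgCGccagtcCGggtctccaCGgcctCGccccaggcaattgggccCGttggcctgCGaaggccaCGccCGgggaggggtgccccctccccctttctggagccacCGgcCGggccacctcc
GATA6: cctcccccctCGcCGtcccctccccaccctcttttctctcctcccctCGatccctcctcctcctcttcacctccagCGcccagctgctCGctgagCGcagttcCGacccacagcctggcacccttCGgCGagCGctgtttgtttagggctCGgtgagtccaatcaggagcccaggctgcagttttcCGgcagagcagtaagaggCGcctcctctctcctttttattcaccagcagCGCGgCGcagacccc
The windows of GATA2 hold 24 CpG sites at the upstream start and 18 at the downstream start, and that of GATA6 holds 16. Over all 35116 promoters in the table the median is 11, and 76.3%, 63.2% and 59.0% of promoters have fewer than these 3 windows. The 250 bases before the start of GATA1 hold 4 CpG sites, and the 6 listed GATA3 starts have 4 to 30. The windows were searched on both strands for the common forms of the GATA site, spelled AGATAA with T also allowed as the first letter and G also allowed as the last, and no other motif was searched. None of these windows holds such a site. Of all promoters of this length, 22.3% hold at least 1.

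GATA6, the colonic crypt factor, was the other member that passed the filter, and it was not called. It was at 1.28, 2.16 and 1.19 TPM in DKO1 replicates 1, 2 and 3, against 1.24, 1.21 and 0.89 TPM in WT replicates 1, 2 and 3. The groups overlapped, and DKO1 replicate 2 alone stood apart from the other 5 samples. The means were 1.54 ± 0.536 TPM in DKO1 and 1.11 ± 0.194 TPM in WT (SD, n = 3 each). The log2 difference was 0.25 (SE 0.18, 95% confidence interval −0.18 to 0.68, limma adjusted p = 0.348), and it was 0.085 without DKO1 replicate 2 and −0.305 under quantile normalization. The interval leaves room for a change in either direction, and this scale understates a change in TPM at such a low level. The log2 ratio of GATA2 to GATA6 within a sample was 1.5, 0.67 and 1.79 in DKO1, against −0.3, −0.25 and −0.52 in WT. This ratio was thus higher in every DKO1 sample than in any WT sample, by 1.67 on average (exact permutation p = 0.1, two-sided, the smallest that 3 against 3 samples allow).

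GATA4 and GATA5, the members described as methylated in colorectal cancer, were close to silent in WT and barely detected in DKO1. GATA5 was at 0.43, 0.23 and 0.24 TPM in DKO1 replicates 1, 2 and 3 and was listed at 0 in all 3 WT samples. GATA4 was at 0.16, 0.16 and 0.14 TPM in DKO1, against 0, 0 and 0.03 TPM in WT. All DKO1 values of both genes lay above all WT values, and all stayed below 0.5 TPM, so neither gene passed the filter. Fitted with all 29487 genes above 0 in at least 1 sample, the log2 difference was 0.38 for GATA5 (SE 0.07, limma adjusted p = 0.0114) and 0.19 for GATA4 (SE 0.03, limma adjusted p = 0.00667). In that fit 14.9% of genes were called higher and 3.72% lower. All DKO1 values lay above all WT values in 26.0% of those genes, and 6.25% were at 0 in all WT samples and above 0 in all DKO1 samples, as GATA5 was. The GATA5 call was lost without any 1 of the WT samples (adjusted p from 0.0593 to 0.0652), and the GATA4 call under quantile normalization (0.275).

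GATA3, the T helper and luminal factor, was at 0.11, 0.27 and 0.11 TPM in DKO1, against 0.21, 0.17 and 0.32 TPM in WT, and the groups overlapped. Its log2 difference without the filter was −0.09 (SE 0.08, limma adjusted p = 0.493). GATA1, the erythroid factor, was listed at 0 in all 6 samples and could not be tested. The family therefore had 1 member called higher among 2 that passed the filter, 2 members higher at levels below 0.5 TPM, 1 that overlapped at such levels and 1 at 0.

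**Figure D1:**
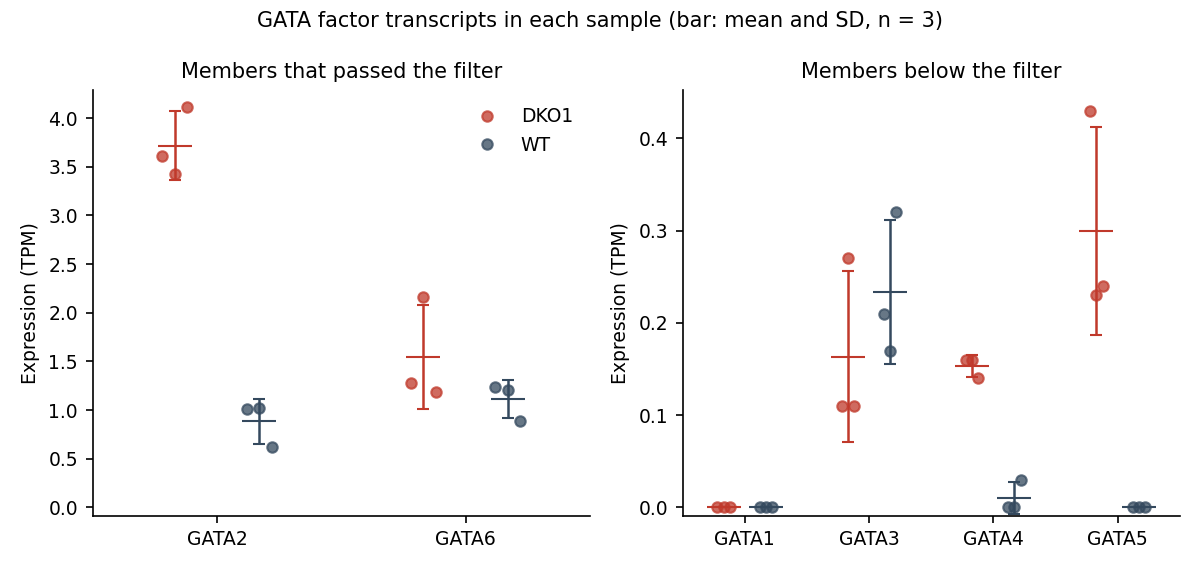
Expression in TPM of each GATA factor in every sample, with points for samples and bars for the mean and SD of 3 samples. The left panel shows GATA2 with DKO1 samples from 3.43 to 4.11 TPM above WT samples from 0.62 to 1.02 TPM, beside GATA6, whose groups overlap. The right panel has a smaller scale and shows the 4 members that stayed below 0.5 TPM.

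The order of the members by level differed between the lines. In DKO1 the order was GATA2, GATA6, GATA5, GATA3, GATA4 and GATA1, and the sample ranges of GATA5 and GATA3 and of GATA3 and GATA4 overlapped. In WT it was GATA6, GATA2, GATA3, GATA4, then GATA5 and GATA1 at 0, and the ranges of GATA6 and GATA2 overlapped, as did those of GATA4 and the members at 0. Summed over the family, the level was 5.59, 6.25 and 5.79 TPM in DKO1, against 2.46, 2.4 and 1.86 TPM in WT. GATA2 held 64.6%, 54.9% and 71.0% of that sum in DKO1 and 41.1%, 42.5% and 33.3% in WT. GATA6 held 22.9%, 34.6% and 20.6% in DKO1 and 50.4%, 50.4% and 47.8% in WT. The leading GATA transcript was thus GATA2 in every DKO1 sample and GATA6 in every WT sample, a description of these samples with no test. In bulk samples, more cells with GATA2 RNA and more GATA2 RNA per cell cannot be told apart.

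**Figure D2:**
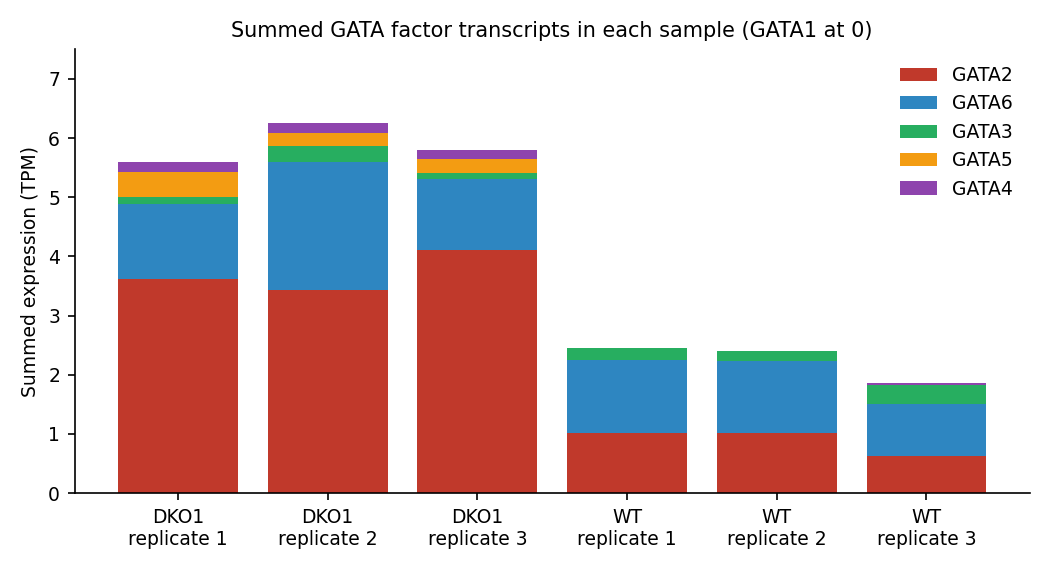
Summed TPM of the GATA factors in each sample, stacked by member. The sums are 5.59 to 6.25 TPM in DKO1 and 1.86 to 2.46 TPM in WT, and the GATA2 segment is the largest in each DKO1 sample.

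The antisense gene that overlaps GATA2 was also higher in DKO1. GATA2-AS1, a noncoding RNA from the opposite strand, was at 1.72, 2.53 and 2.09 TPM in DKO1, against 0.74, 0.41 and 0.36 TPM in WT. Every DKO1 value lay above every WT value, and the log2 difference was 1.05 (SE 0.17, limma adjusted p = 0.0031). GATA2-AS1 passed the filter through its DKO1 values alone, so it had to differ to be tested. The call was lost under quantile normalization (log2 difference 0.525, adjusted p = 0.0898). The libraries were stranded, but whether counting used the strand is not stated in the labels, so some reads of GATA2 may be counted for its antisense gene or the reverse. The log2 ratio of GATA2 to GATA2-AS1 averaged 0.83 ± 0.34 in DKO1 and 0.85 ± 0.44 in WT (SD, n = 3 each; difference −0.02, exact permutation p = 0.9, two-sided). GATA6-AS1 was at 0.14, 0.07 and 0.07 TPM in DKO1 and 0, 0 and 0.04 TPM in WT, below the filter, and GATA3-AS1 did not exceed 0.02 TPM.

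Of 13 genes for cofactors of GATA proteins 8 were tested, of which 2 rose, 1 fell and 5 did not pass, close to the 18.8% higher and 9.6% lower of all tested genes. Their median log2 difference was 0.34, against 0.073 over all tested genes. LMO2, the bridging protein of GATA and TAL complexes in blood, was at 2.99, 2.33 and 2.15 TPM in DKO1, against 0.32, 0.04 and 0.07 TPM in WT. It rose by a log2 difference of 1.61 (SE 0.16, limma adjusted p = 0.000325), and it passed the filter through its DKO1 values alone. LMO4, a relative of LMO2 in epithelia, rose 1.81-fold, to 50.5 ± 5.59 TPM in DKO1, against 28 ± 2.97 TPM in WT (limma adjusted p = 0.00389). MED1, the Mediator subunit that binds GATA1, fell 1.55-fold, to 45.8 ± 4.43 TPM in DKO1, against 71 ± 1.01 TPM in WT (limma adjusted p = 0.00604). The coactivators EP300 and CREBBP did not pass, at 12.7 ± 0.936 and 28.5 ± 2.08 TPM in DKO1 and 12 ± 0.45 and 29 ± 0.78 TPM in WT. The FOG genes ZFPM1 and ZFPM2 and the blood factors TAL1, LYL1 and LMO1 stayed at or below 0.3 TPM in every sample. In the fit without the filter ZFPM2 and TAL1 were called higher (limma adjusted p = 0.00982 and 0.0355), which makes 4 cofactor genes higher and 1 lower there. ZFPM2 was at 0.24, 0.14 and 0.16 TPM in DKO1 and at 0 in all WT samples.

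None of the 7 tested genes with related GATA-type fingers was called (median log2 difference −0.11). MTA2 and MTA3, subunits of the NuRD repressor complex, were at 65.4 ± 14.6 and 28.3 ± 5.55 TPM in DKO1 and 65.4 ± 9.99 and 30.7 ± 5.77 TPM in WT. TRPS1, a repressor with a GATA-type finger that is named after its values were seen, was at 1.25, 1.62 and 0.79 TPM in DKO1, against 0.01, 0.02 and 0 TPM in WT. It missed the filter by 1 sample, and in the fit without the filter its log2 difference was 1.12 (SE 0.15, limma adjusted p = 0.00423). With the replicate number as a block MTA1, another NuRD subunit, was called lower (11.5 ± 2.31 TPM in DKO1 and 16.7 ± 2.08 TPM in WT, limma adjusted p = 0.0259 with the block and 0.0737 without).

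Genes known as targets of GATA1 and GATA2 in blood cells mostly stayed near 0. Of 18 red cell genes 2 were tested and none was called, and 6 were at 0 in all samples, among them the globin gene HBB and the haem synthesis gene ALAS2. The erythropoietin receptor EPOR was at 1.71 ± 0.419 TPM in DKO1 and 1.04 ± 0.0577 TPM in WT (limma adjusted p = 0.0943), and it was called with mitochondrial and non-human rows left out (0.0485) and without DKO1 replicate 2 (0.0424). The fetal globin HBG2, which has a near-identical copy that can share its reads, was at 0.907 ± 0.373 TPM in DKO1 and 1.08 ± 0.682 TPM in WT, and was called lower under quantile normalization (log2 difference −0.729, limma adjusted p = 0.0415). None of 10 platelet and mast cell genes passed the filter, and 6 of them were at 0 in all samples. The platelet integrin ITGA2B ranged from 0.07 to 1.37 TPM in DKO1 and from 0.04 to 0.58 TPM in WT, and the histamine enzyme HDC did not exceed 0.04 TPM.

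Among 8 progenitor genes 3 were tested and 1 rose. RUNX1, a blood stem cell factor that epithelia also express, was at 18.56, 20.62 and 19.59 TPM in DKO1, against 7.64, 7.33 and 7.75 TPM in WT. It rose 2.59-fold, with groups far apart (log2 difference 1.26, SE 0.13, limma adjusted p = 0.000334). HHEX, a factor of blood and endoderm, was at 14.9 ± 2.52 TPM in DKO1 and 10.7 ± 0.9 TPM in WT (limma adjusted p = 0.094, and 0.0489 with the replicate block and 0.0291 without DKO1 replicate 3). KIT, a receptor gene of blood progenitors and mast cells, named after its values were seen, was at 0.57, 0.48 and 0.49 TPM in DKO1 and at 0 in all WT samples.

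Some genes that mark blood cells were also higher in DKO1. Of 8 such genes, 1 was tested, LYZ, which was called higher and passed the filter through its DKO1 values alone. Their summed level was 3.53 to 3.96 TPM in DKO1 and 0.4 to 0.64 TPM in WT. The pan-leukocyte gene PTPRC was at 0.43, 0.51 and 0.61 TPM in DKO1 and at 0 in WT, and NKG7 was at 0 throughout. The part of these genes in the GATA2, LMO2 and RUNX1 results was not tested. The epithelial gene EPCAM was at 455 ± 72.9 TPM in DKO1 and 488 ± 42.4 TPM in WT, and the 10 epithelial markers summed to 718 to 968 TPM in DKO1 and 958 to 1200 TPM in WT, with 2 of 8 tested genes called higher, CDH1 and CLDN4. With the replicate block the keratins KRT8 and KRT18 were also called, lower (limma adjusted p = 0.011 and 0.047, against 0.0543 and 0.255 without it). None of 4 endothelial or 7 fibroblast markers passed the filter, and the fibroblast markers summed to 3.35 to 3.7 TPM in DKO1 and 1.18 to 1.85 TPM in WT. COL1A2 was at 1.66, 0.93 and 1.16 TPM in DKO1, against 0, 0.05 and 0 TPM in WT. In the fit without the filter 3 fibroblast markers were called higher, against 14.9% of all genes in that fit. COL3A1 went the other way and was called lower there (limma adjusted p = 0.0396), against 3.72% of all genes.

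Genes tied to GATA3 were listed for T helper cells and for luminal and urothelial cells. Of 10 T helper genes 1 was tested and not called, the factor TCF7 (9.28 ± 1.25 TPM in DKO1 and 8.41 ± 1.36 TPM in WT), and the others stayed at or below 0.71 TPM. BCL11B, a T cell factor, was at 0.09 TPM in each DKO1 sample, against 0.71, 0.52 and 0.5 TPM in WT (log2 difference −0.53 without the filter, limma adjusted p = 0.0045). CCR4 went the other way, at 0.19, 0.15 and 0.27 TPM in DKO1, against 0.05, 0 and 0.03 TPM in WT (limma adjusted p = 0.0214 without the filter). That fit thus called 1 T helper gene higher and 1 lower, against 14.9% and 3.72% of all its genes. Of 10 luminal and urothelial genes 4 were tested and 3 rose, against 18.8% of all tested genes, and the difference between these lists was not tested. The keratin KRT7 was at 20.19, 12.69 and 27.45 TPM in DKO1, against 0.51, 0.81 and 0.48 TPM in WT, 33.5-fold higher (log2 difference 3.66, SE 0.27, limma adjusted p = 7.56e-05). Like ELF3, KRT7 passed the filter through its DKO1 values alone. ELF3, an epithelial factor, was at 6.89, 3.08 and 8.48 TPM in DKO1, against 0.58, 0.58 and 0.8 TPM in WT (log2 difference 2.03, SE 0.31, limma adjusted p = 0.00239). PPARG, a nuclear receptor, rose 1.53-fold (limma adjusted p = 0.02), a call lost under quantile normalization (0.0716), with median-ratio scaling (0.0548) and without DKO1 replicate 1 or any WT sample (0.0543 to 0.093). The oestrogen receptor ESR1 and the uroplakins UPK1A, UPK2 and UPK3A stayed at or below 0.23 TPM.

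Genes tied to GATA4, GATA5 and GATA6 were listed for enterocytes, heart, colorectal and gastric cancer, and endoderm. None of 11 enterocyte targets passed the filter, the highest being the lactase gene LCT with at most 0.2 TPM, called lower under quantile normalization (limma adjusted p = 0.00545), and the fatty acid binding protein FABP1 was above 0 only in DKO1 replicate 3 (0.09 TPM). Of 13 cardiac genes 2 were tested, of which MEF2C, a muscle and neural factor, fell to 2.77, 2.76 and 2.3 TPM in DKO1, against 7.4, 6.02 and 6.4 TPM in WT (log2 difference −1.07, SE 0.15, limma adjusted p = 0.00188). TNNI3, cardiac troponin I, was at 4.74 ± 1.18 TPM in DKO1 and 3.43 ± 1.11 TPM in WT (limma adjusted p = 0.282). The 6 heart muscle markers, TNNI3 among them, summed to 4.23 to 7.05 TPM in DKO1 and 2.96 to 4.85 TPM in WT.

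Of 7 genes linked to GATA factors in colorectal and gastric cancer 3 were tested, and 1 rose and 1 fell. The trefoil factor TFF2, a mucosal repair peptide whose human promoter GATA6 can activate, was at 19.69, 12.06 and 14.09 TPM in DKO1, against 0, 0.26 and 0 TPM in WT. It passed the filter through its DKO1 values and had a log2 difference of 3.89 (SE 0.21, limma adjusted p = 2.19e-05). BMP4, a growth factor that GATA6 has been described to restrain in colorectal cells, fell to 48.77, 42.22 and 55.38 TPM in DKO1, against 116.42, 97.12 and 117.43 TPM in WT (log2 difference −1.16, SE 0.14, limma adjusted p = 0.000772). DAB2, an endocytic adaptor, was at 6.69 ± 0.725 TPM in DKO1 and 4.15 ± 1.65 TPM in WT (limma adjusted p = 0.0907, and 0.0389 with the replicate block). TFF1 was at 0 in all samples and the stem cell receptor LGR5 at or below 0.06 TPM. TFF3 was at 1.09, 0.35 and 1.38 TPM in DKO1 and at 0 in all WT samples, and missed the filter by 1 sample. In the fit without the filter TFF3 was called higher (limma adjusted p = 0.0287).

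Factors that act with GATA4 and GATA6 in endoderm changed in both directions, with 3 of 9 tested genes higher and 3 lower, against 18.8% and 9.6% of all tested genes. NR5A2, an orphan nuclear receptor that acts in liver and intestine, fell to 0.56, 0.77 and 0.32 TPM in DKO1, against 43.22, 44.56 and 45.2 TPM in WT (log2 difference −4.88, SE 0.16, limma adjusted p = 5.25e-06). NR5A2 passed the filter through its WT values alone. SOX9, a factor of crypt progenitors, was at 45.91, 51.8 and 30.72 TPM in DKO1, against 11.65, 10.68 and 7.48 TPM in WT, 4.31-fold higher (log2 difference 1.99, SE 0.24, limma adjusted p = 0.000721). HNF4G, a hepatocyte nuclear factor of the gut, fell 2.03-fold (limma adjusted p = 0.0197), and its call was lost without DKO1 replicate 1, WT replicate 1 or WT replicate 2 (0.0544, 0.0684 and 0.0813). KLF4 rose 1.58-fold (limma adjusted p = 0.0393), and its call was lost under quantile normalization and median-ratio scaling, without a filter and without DKO1 replicate 1 or 2 or any WT sample (0.0555 to 0.143). KLF5 was also called higher and CDX2 lower (limma adjusted p = 0.0152 and 0.026). CDX2 passed the filter through its WT values alone. FOXA1 and FOXA3 were not called (limma adjusted p = 0.09 and 0.0603), but were called higher with the replicate block (0.0418 and 0.0335). FOXA2, a pioneer factor of endoderm, was at 0 in all samples. Over the 12 lists beside the GATA factors, 127 genes were matched and 40 tested, of which 11 rose (27.5%) and 6 fell (15.0%), against 18.8% and 9.6% of all tested genes.

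**Figure D3:**
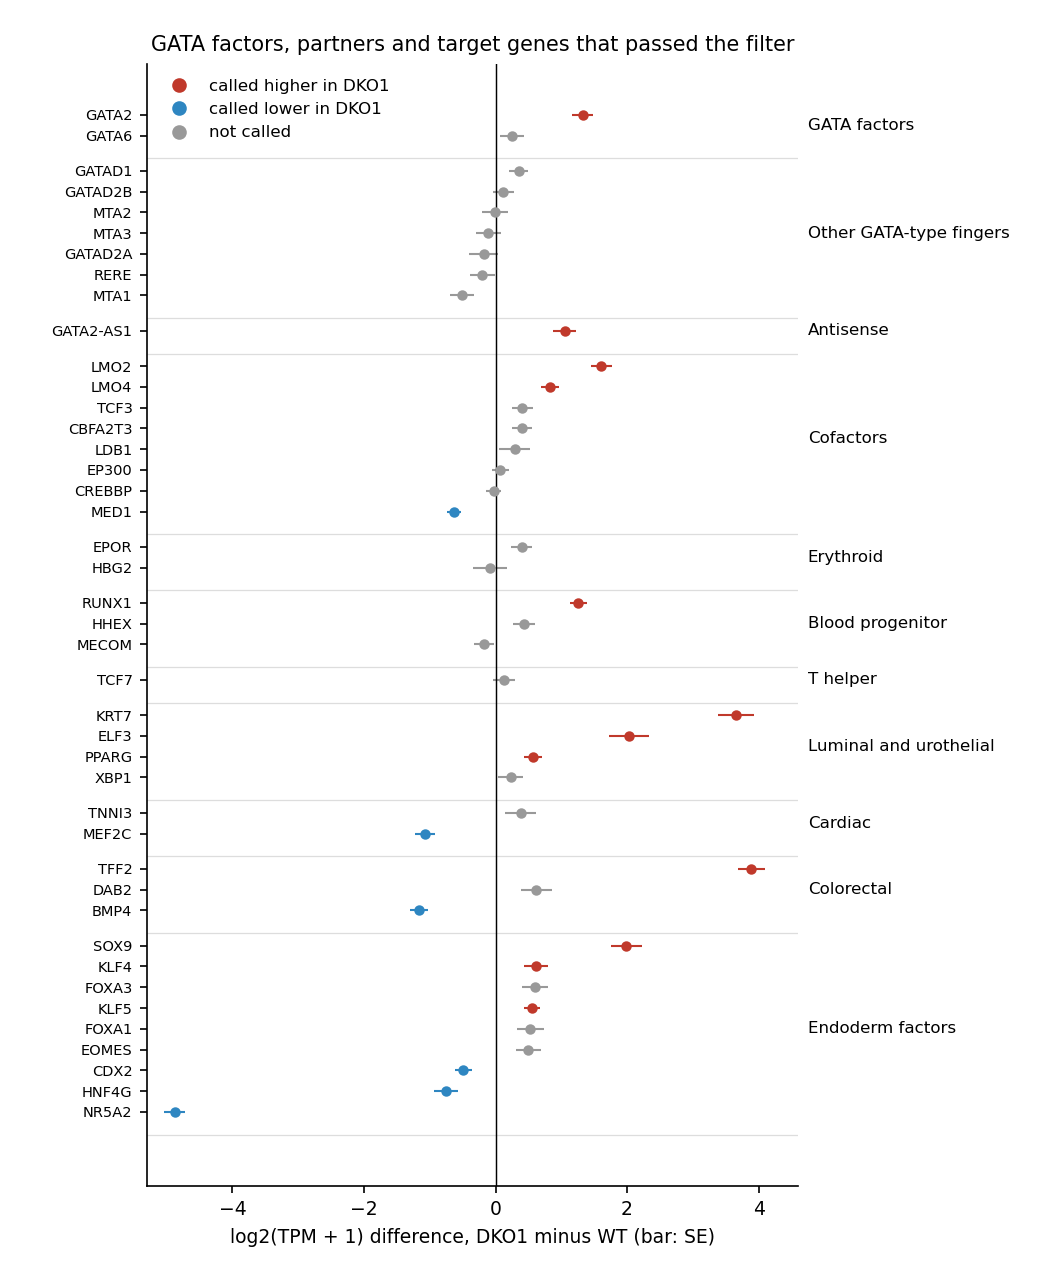
Difference in log2(TPM + 1), DKO1 minus WT, with SE bars, for every gene that passed the filter among the GATA factors and 10 of the other lists. Red marks genes called higher in DKO1, blue lower and grey not called. GATA2 lies at 1.33, and TFF2 (3.89) and NR5A2 (−4.88) mark the ends of the range.

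The chromosomal neighbours of the GATA genes were compared to see whether whole stretches moved. Order along the chromosome came from GENCODE 29 on GRCh38, whereas the submitters' notes list hg19, so no distances are given. Of the 24 tested genes that are the nearest 2 on each side of the 6 members, 4 were called higher and 4 lower, against 18.8% and 9.6% of all tested genes. With the nearest 5 on each side, 17 of 60 were called higher and 6 lower. Beside GATA2 1 of the nearest 4 was called, RPN1, a subunit of the oligosaccharide transferase, with 271 ± 40.3 TPM in DKO1 and 201 ± 9.63 TPM in WT (log2 difference 0.42, limma adjusted p = 0.0482). That call was lost under median-ratio scaling (0.149), with no variance trend (0.0738), with a mean of at least 5 TPM (0.0568), without a filter (0.0705) and without DKO1 replicate 1 or 2 or any WT sample (0.0656 to 0.165). The rise of GATA2 was larger than the differences of these 4 neighbours, which lay between −0.32 and 0.42, a comparison with no test. Among the nearest 10 genes 5 were called higher and none lower by limma: RPN1, SEC61A1, MGLL, CFAP92 and PODXL2. CFAP92, the fourth gene upstream, was at 29.68, 33.91 and 23.04 TPM in DKO1, against 8.2, 10.33 and 7.49 TPM in WT (log2 difference 1.62, limma adjusted p = 0.000649). PODXL2, the fifth gene downstream, was at 3.91, 1.92 and 3.76 TPM in DKO1, against 0, 0.02 and 0.02 TPM in WT (log2 difference 2.01, limma adjusted p = 0.000426). SEC61A1 and MGLL had log2 differences of 0.51 and 0.99 (limma adjusted p = 0.0295 and 0.00142). MGLL and PODXL2 passed the filter through their DKO1 values alone. Of the alternatives, only the fit without a filter and the replicate block were read out for CFAP92, SEC61A1, MGLL and PODXL2. All were called higher in both, SEC61A1 with a limma adjusted p of 0.0473 and 0.0123.

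Around GATA4 the nearest 2 upstream genes were called higher, FAM167A (1.76 ± 0.229 TPM in DKO1 and 0.257 ± 0.0902 TPM in WT, limma adjusted p = 0.000711) and MTMR9 (12.9 ± 1.31 TPM in DKO1 and 8.26 ± 0.606 TPM in WT, limma adjusted p = 0.0231). The FAM167A call was lost under quantile normalization (0.0648), and that of MTMR9 under median-ratio scaling (0.05), quantile normalization (0.108) and without any 1 of the WT samples (0.0644 to 0.091). Of the nearest 10 genes to GATA4, 6 were called higher, 5 of them upstream, against 18.8% of all tested genes. Of these 6, FAM167A and ENSG00000255310 passed the filter through their DKO1 values alone. Upstream of GATA5 the neurotensin receptor NTSR1 rose 3.83-fold (limma adjusted p = 0.0104) and passed the filter through its DKO1 values alone. Downstream of GATA3 the noncoding RNA SFTA1P fell to 15.17, 13.93 and 17.41 TPM in DKO1, against 112.59, 115.9 and 112.23 TPM in WT, and the pseudogene ORMDL1P1 fell too (log2 differences −2.8 and −0.92, limma adjusted p = 9.31e-06 and 0.0181). ORMDL1P1 passed the filter through its WT values alone, and its call was lost without DKO1 replicate 1 or WT replicate 1 or 3 (0.0591 to 0.0708). Downstream of GATA6 the DNA repair gene RBBP8 and CABLES1 fell (log2 differences −0.84 and −0.94, limma adjusted p = 0.0497 and 0.0152). The RBBP8 call was lost under 9 settings (0.0527 to 0.149) and that of CABLES1 without WT replicate 1 or 3 (0.0632 and 0.0505). Of the nearest 10 genes to GATA6, 3 were called higher and 3 lower, against 18.8% and 9.6% of all tested genes. RIOK3 and RMC1 downstream and GREB1L upstream were higher (log2 differences 0.86, 0.51 and 0.68, limma adjusted p = 0.00355, 0.0191 and 0.0133). The other lower gene was SNRPD1 upstream (−0.53, limma adjusted p = 0.0369, and 0.0614 without the filter).

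**Figure D4:**
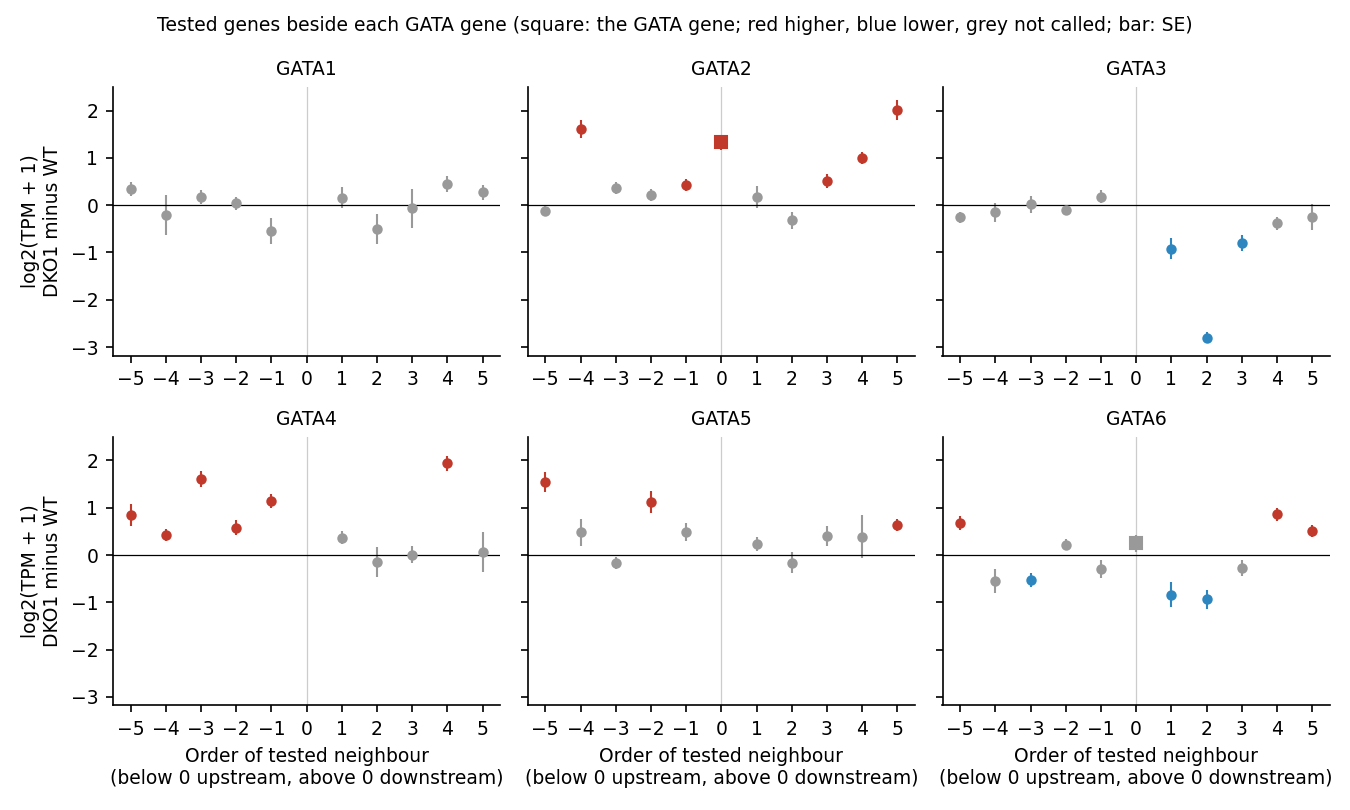
Difference in log2(TPM + 1), DKO1 minus WT, with SE bars, for the 5 nearest tested genes on each side of each GATA gene, in order along the chromosome. The square is the GATA gene where it passed the filter. GATA2 (1.33) lies above its nearest 2 neighbours on each side and below CFAP92 (1.62) and PODXL2 (2.01), and SFTA1P is the low point downstream of GATA3.

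The tested genes most like GATA2 by the Euclidean distance of their log2(TPM + 1) values over the 6 samples were DPYSL3, CRISPLD2 and CHODL, at distances of 0.376, 0.392 and 0.434. DPYSL3, a neuronal cytoskeleton protein, was at 3.94, 3.3 and 3.54 TPM in DKO1, against 0.64, 1.19 and 0.59 TPM in WT. CHODL, a lectin-like membrane protein, was at 3.28, 4.34 and 3.36 TPM in DKO1, against 0.9, 0.95 and 0.87 TPM in WT. The genes most like GATA6 were ENSG00000251569, TYMSOS and RGS4, at distances of 0.247, 0.286 and 0.305. RGS4, a regulator of G protein signalling, was at 1.41, 2.09 and 1.48 TPM in DKO1, against 1.27, 1.08 and 0.63 TPM in WT, with the highest value in DKO1 replicate 2 as for GATA6.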

How the data were processed

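The deposited table gives TPM per gene, made by the authors from reads of stranded messenger RNA libraries and rounded to 2 decimals. The builds hg19 and GRCh37 and the tools RSEM 1.2.21, STAR 2.5.3a, edgeR 3.12.1, Trim Galore 0.4.0 and FastQC are listed without role or order, per the submitters' processing notes. The annotation release is not given in the sources used here. Of 57897 rows, 57820 were human genes, and 77 rows with other names stayed out of every test. Symbols were matched by Ensembl identifier for 89.9% of human rows.

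Genotype was the single term of a limma 3.58.1 fit (R 4.3.3) to log2(TPM + 1), with the variance modelled on mean level. It covered genes that reached 1 TPM in 3 or more of the 6 samples and was tested on simulated data. Members below that filter were read from a fit of all 29487 genes above 0 in a sample. No fold is given where a group mean is below 0.5 TPM. Named genes are the members, the targeted methyltransferases, up to 4 called genes per list with the largest change, the 2 most abundant genes of lists with fewer than 2 calls, and the 3 nearest genes of each tested member. Other genes given with values, neighbours included, were named after their values were seen. The members and lists were chosen with earlier results of these data known. Same-numbered replicates deviated together (correlations of deviations 0.35, 0.572 and 0.267), so the replicate number was also fitted as a block.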

Additional observations from a re-analysis of the deposited data

How the results depend on the processing

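The GATA2 call was kept in all 13 alternatives that gave it a value, with log2 differences from 0.899 (quantile normalization) to 1.982 (pseudocount of 0.1), from 1.224 to 1.384 with a sample left out, and an adjusted p of 0.00191 with the replicate block. A mean of at least 5 TPM left no GATA gene to test. GATA6 was not called in any alternative and reversed under quantile normalization (−0.305). The GATA4 call was lost under quantile normalization (log2 difference 0.078, limma adjusted p = 0.275). The GATA5 log2 difference was 0.375 without WT replicate 1, 2 or 3 and 0.304 to 0.413 over all fits with a sample left out. Quantile normalization moved the median of all tested genes by −0.139, and relative to it GATA2 was at 0.96 and GATA6 at −0.24. Called higher genes numbered 2558, with 1145 above a mean of 5 TPM, 4400 with no filter and 1705 to 2842 with a sample left out. Called lower genes numbered 1306, with 524 to 2079 with a sample left out, among them 842 and 2079 without DKO1 replicate 1 or 3 and 604, 524 and 550 without WT replicate 1, 2 or 3. Of other listed genes, 11 were higher, and 18 with no filter. Of the same other listed genes, 6 were lower, and 3 above a mean of 5 TPM. Among the 44 other genes followed, 16 of 587 comparisons reversed, all of genes not called. Under quantile normalization these were ENSG00000251569 (−0.1), EPOR (−0.049), ITGA2B (−0.177), MTA2 (0.092), RGS4 (−0.099), TCF7 (−0.072) and TYMSOS (−0.299), and with mitochondrial and non-human rows left out MTA2 (0.097). With a sample left out, HBG2 ranged from −0.311 to 0.154, ITGA2B from −0.146 to 0.428, MTA2 from −0.152 to 0.171 and MTA3 from −0.264 to 0.012. The cause was not tested. The replicate block ended no call of a gene named here for which it was read out. It was not read out for genes such as TRPS1, ZFPM2, TAL1, CCR4, TFF3 and COL3A1, called only in the fit without the filter. Among genes with values here, the block added HHEX, DAB2, MTA1, KRT8, KRT18, FOXA1 and FOXA3. The DNMT3B call was lost with mitochondrial and non-human rows left out (0.0645) and without DKO1 replicate 1 or any WT sample (0.0535 to 0.11).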
